A study of Arabidopsis thaliana with 4 samples.

Results

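The 26S proteasome genes described here are 52 loci of Arabidopsis thaliana, chosen by locus tag from a list of the subunits of the complex, of 27444 protein-coding genes on the nuclear chromosomes. They comprise 24 genes of the 20S core particle, 11 genes of the ATPases of the 19S regulatory particle (RPT) and 17 genes of its non-ATPase subunits (RPN). All 52 locus tags were found in the RefSeq gene table of assembly TAIR10.1, and that table gives the subunit name for 37 of them; the other 15 are called by the symbol or locus tag that the table holds. A gene counts as having a peak if any peak reaches within 500 bp of either end of the gene.

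The peaks come from chromatin immunoprecipitation followed by sequencing of TRB1, a Myb-type protein known for its binding to telomeric repeats. Whole seedlings aged 14 days were used in 4 groups with 1 library each: plants of genotype TRB1pro:TRB1-GFP on a GFP-binding matrix, wild-type plants on the same matrix as their control, wild-type plants to which an anti-TRB1 antibody was applied, and wild-type plants without that antibody as the control. In the first of these the tagged protein is driven by the TRB1 promoter; no label says whether that line also makes untagged TRB1. The data are 4 peak lists: one called replicate 1 (3975 peaks), one called replicate 2 (7480 peaks), a PePr list (24219 peaks) and a genomic list (4995 intervals). No label ties a replicate list to either immunoprecipitation, and read depth is unknown.

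The 26S proteasome degrades proteins that carry chains of ubiquitin. Its core is a barrel in which outer rings of alpha subunits (PAA to PAG) gate the entrance and inner rings of beta subunits (PBA to PBG) hold the protease sites, and the regulatory particle at its end recognises ubiquitin, removes it, and unfolds the substrate with a ring of RPT ATPases. In Arabidopsis many subunits are made from a pair of closely related genes. Many plant proteasome genes are induced together when the proteasome is inhibited.

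Few proteasome genes lay at a TRB1 peak of the genomic list, each interval of which lies inside a peak of each of the other 3 lists. Of the 52 genes, 4 had a peak there (7.69%, exact 95% interval 2.14 to 18.5), beside 19.6% of all nuclear protein-coding genes. They were PBG1, a beta subunit of the core without a protease site, the ATPases RPT1A and RPT2b, and RPN1B, a large scaffold protein at the base of the regulatory particle. With replicate 1 the count was 7 of 52 (13.5%, interval 5.59 to 25.8, background 24.6%), and with replicate 2 it was 15 (28.8%, interval 17.1 to 43.1, background 41.4%). In the PePr list the order turned: 42 of 52 had a peak (80.8%, interval 67.5 to 90.4), beside 68.7% of all genes. These intervals cover the counting of genes only and not the spread between plants, since each group had 1 library; the shares were set beside the background as a description and no difference was tested.

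By subunit class, the share of ATPase genes in the genomic list lay closest to the background. It was 2 of 11 (18.2%, interval 2.28 to 51.8), beside 1 of 24 core genes (4.17%, interval 0.105 to 21.1) and 1 of 17 non-ATPase genes (5.88%, interval 0.149 to 28.7). With the better 50% of intervals, ranked by the mean rank of the scores of the replicate 1 and replicate 2 peaks over them, the ATPase count stayed at 2 while the background was 10.6%, so that its share lay above it. In the replicate 1 list the counts were 2 of 24 core, 2 of 11 ATPase and 3 of 17 non-ATPase genes. In the replicate 2 list the 3 classes had almost the same share, at 29.2% of core (7 genes), 27.3% of ATPase (3 genes) and 29.4% of non-ATPase genes (5 genes). In the PePr list 20 core genes (83.3%), 8 ATPase genes (72.7%) and 14 non-ATPase genes (82.4%) had a peak. The intervals of the 3 classes overlapped one another in every list, and with 11 to 24 genes a class they are wide.

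**Figure D1:**
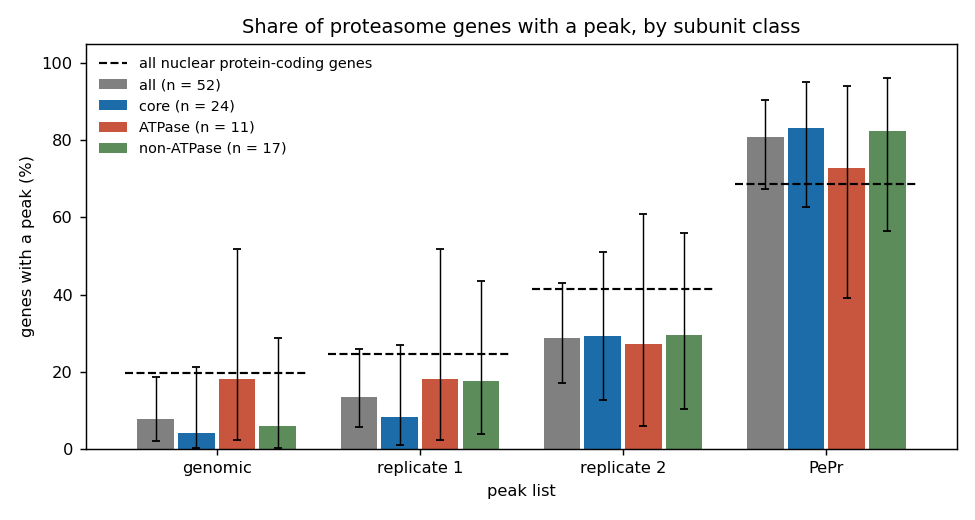
Share of genes with a peak (%) in each of the 4 peak lists for all 52 proteasome genes and for each subunit class; bars are shares, error bars exact 95% intervals over counts of genes, and the dashed lines the share of all nuclear protein-coding genes. The shares of all proteasome genes lie under the dashed line in the genomic, replicate 1 and replicate 2 lists and above it in the PePr list.

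Within the core particle, the alpha and beta rings were counted apart. None of the 13 alpha subunit genes had a peak in the genomic list (interval 0 to 24.7%) or in that of replicate 1, and 1 of them, PAD1, had a replicate 2 peak (7.69%, beside 41.4% of all genes). Of the 11 beta subunit genes, 1 had a genomic list peak, 2 had a replicate 1 peak and 6 had a replicate 2 peak (54.5%, interval 23.4 to 83.3, above the background of 41.4%). All 11 beta subunit genes (interval 71.5 to 100%) and 9 of the 13 alpha subunit genes (69.2%, interval 38.6 to 90.9) had a PePr peak, and the latter share was close to the background of 68.7%. The division of the core into rings was made after these counts were seen and was not tested.

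**Figure D2:**
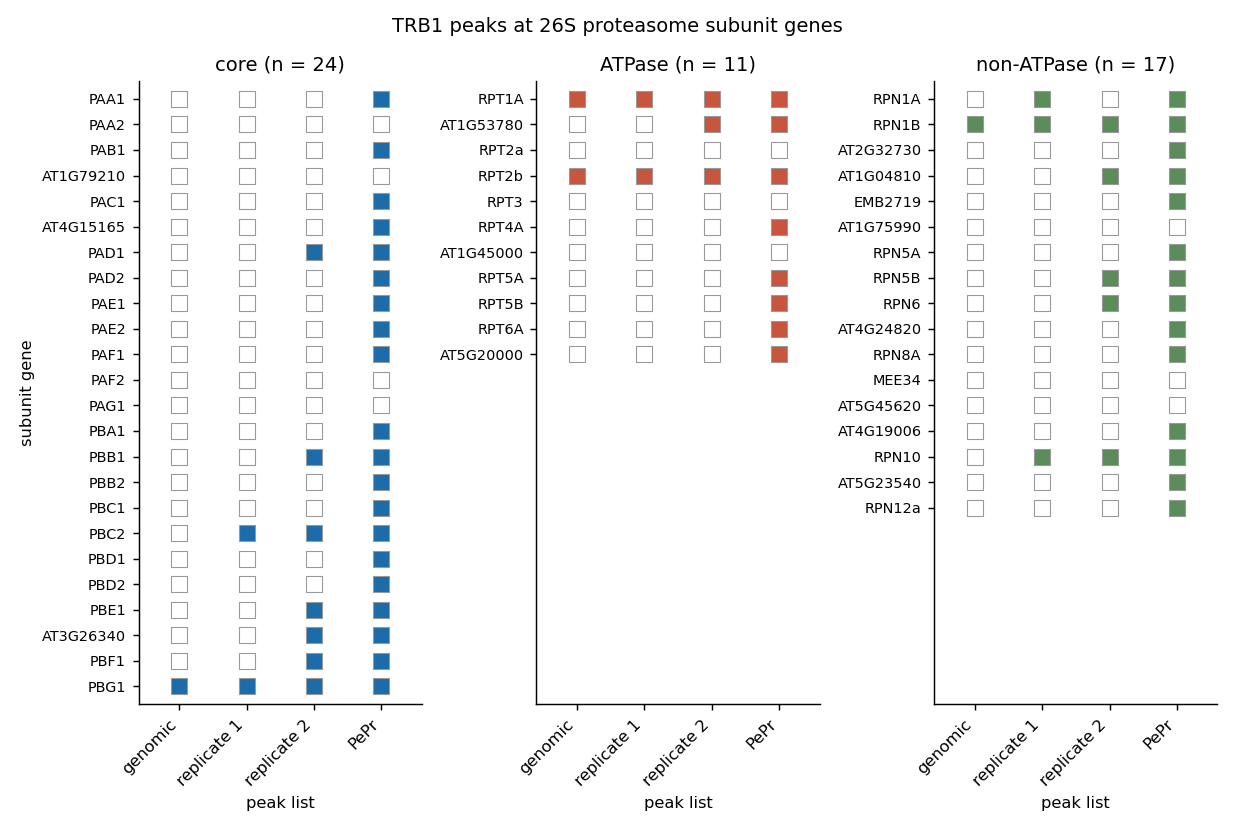
Every proteasome subunit gene (rows, by class) against the 4 peak lists (columns); a filled square marks a gene with a peak within 500 bp of either end and an open square a gene without one. Only PBG1, RPT1A, RPT2b and RPN1B are filled in the genomic column, whereas 42 of the 52 genes are filled in the PePr column.

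The most frequent pattern was a PePr peak with no replicate peak. It held 26 of the 52 genes (50%), beside 29.4% of all genes, and was made up of 13 core, 5 ATPase and 8 non-ATPase genes. A further 9 genes (17.3%, background 16.4%) had peaks in the replicate 2 and PePr lists, 1 gene (RPN1A; background 1.83%) in the replicate 1 and PePr lists, and 2 genes (PBC2 and RPN10; background 1.42%) in these 3 lists but not in the genomic list. The 4 genes of the genomic list (7.69%, background 19.6%) had peaks in all 4 lists. This follows from each genomic interval lying inside a peak of every other list. No list reached the remaining 10 genes (19.2%, background 26.9%), which were the core genes PAA2, PAF2, PAG1 and AT1G79210, the ATPase genes RPT2a, RPT3 and AT1G45000, and the non-ATPase genes AT1G75990, MEE34 and AT5G45620. Among the 42 genes with a PePr peak, 9.52% also had a genomic list peak, beside 28.6% of the 18849 nuclear genes with a PePr peak. For the replicate 1 list these shares were 16.7% and 33.3%, and for the replicate 2 list 35.7% and 54.6%.

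RPN1B and its paralog RPN1A encode a scaffold of the regulatory particle that, in yeast, docks ubiquitin shuttles and a deubiquitinase. Its genomic list interval lay on chromosome 4 from 14065461 to 14066650, 1190 bp wide, and coincided with the PePr peak of smallest p-value at any proteasome gene (1.17e-34; 0.913% of PePr peaks had a smaller one). Both replicate lists held a peak over it with a score of 3100, a value that 70.6% of replicate 1 peaks and 87.7% of replicate 2 peaks lay below. These scores come from the authors, their scale is unknown, and they are used only within a list. The replicate 1 peaks at RPT1A, RPT2b and RPN10 had the same score of 3100, so it does not rank these peaks. The highest replicate 1 score was 3233.06. The replicate peaks were 3043 bp and 2872 bp wide, covered the end of RPN1B and also reached AT4G28450 and AT4G28460. The genomic interval itself ended 81 bp short of RPN1B, and the gene end nearest to its centre was that of AT4G28460. A second replicate 2 peak at the opposite end of RPN1B (14071745 to 14073223) had a score of 184.93 and a PePr p-value of 2.36e-11 beneath it, and no replicate 1 peak overlapped it.

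RPT2b and RPT1A encode subunits of the ATPase ring. At RPT2b the genomic interval on chromosome 2, 8691761 to 8692950, was identical to a PePr peak whose p-value in the authors' list was 3.00e-31. The replicate 1 peak there had a score of 3100 and the replicate 2 peak a score of 1165.99. This peak spanned the short gap between RPT2b and its neighbour LCV1, and its centre was nearer to the end of LCV1. At RPT1A the interval on chromosome 1, 20068161 to 20069010, was identical to a PePr peak whose p-value in the authors' list was 3.19e-27, and the scores were 3100 in replicate 1 and 911.92 in replicate 2. Here the centre lay 85.5 bp from the end of RPT1A, nearer than to AT1G53760, the other gene in reach. Of the 4 genes in every list, RPT1A was the only one at which the nearest end to the replicate 1, replicate 2, PePr and genomic peak was in each case its own.

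At PBG1, the beta subunit, 2 genomic intervals lay under 1 peak of each replicate list. The wider interval (chromosome 1, 21141371 to 21142560) covered the end that PBG1 shares with its neighbour TPR5, and its PePr p-value was 3.61e-10. The narrower one (21141070 to 21141200) was 131 bp wide and lay inside TPR5, with a PePr p-value of 1.79e-06. The replicate scores of 1617.63 and 293.57 were both under the list medians of 1772 and 571, whereas the replicate peaks over the genomic intervals of the other 3 genes had scores above the median in both lists.

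**Figure D3:**
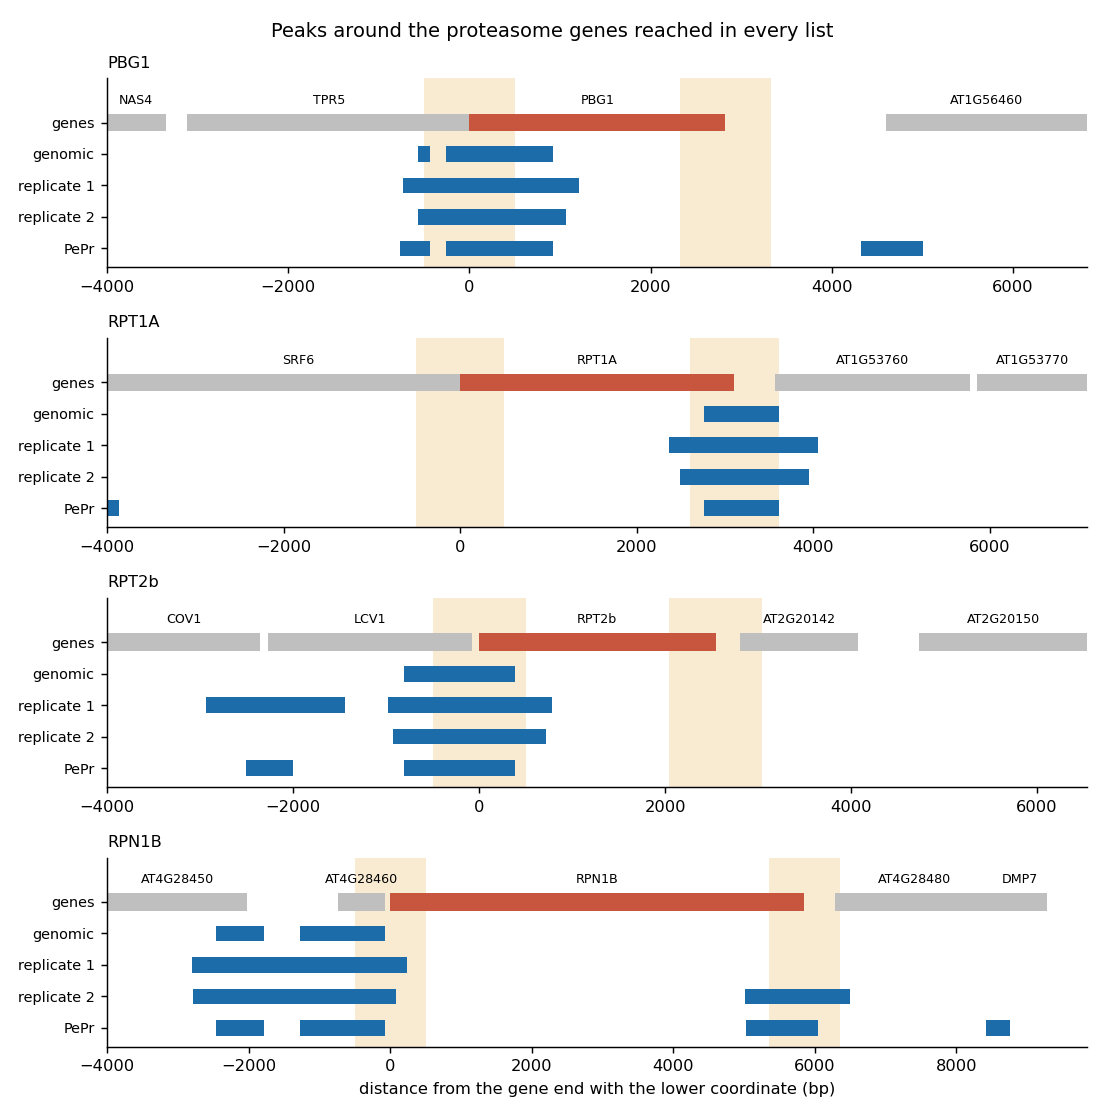
Peaks of the 4 lists (blue) and genes (red for the proteasome gene, grey for neighbours) around PBG1, RPT1A, RPT2b and RPN1B; the horizontal axis is the distance in bp from the gene end with the lower coordinate, and shaded bands mark the 500 bp on either side of each gene end. In each panel the genomic list intervals that reach a shaded band do so at 1 end of the gene, where a neighbouring gene is within reach of the same peak; a further interval in the RPN1B panel lies outside the bands.

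All 7 replicate 1 peaks at proteasome genes were also in reach of another gene, and for 6 of them the nearest gene end was that of the other gene. Of the 17 replicate 2 peaks, 1 reached a proteasome gene alone and 10 had a proteasome gene end as the nearest; of the 61 PePr peaks these numbers were 18 and 45. How often the peaks of each whole list reach a second gene was not determined. In the replicate 1 list 3759 peaks reached a gene, and 6746 genes were reached. No peak was shared between proteasome genes. If a peak counted for no gene but that of the nearest end, the count in the replicate 1 list went from 7 to 1 (RPT1A; background 13.5%) and in the genomic list from 4 to 2 (PBG1 and RPT1A; background 13.5%), and in the replicate 2 list it was 10 (background 25.1%). In the genomic list PBG1 stayed only through its interval of 131 bp, whose centre lay 498 bp from the end of PBG1. The wider interval there was nearest to the end of TPR5. Because no strand was used, which of the gene ends are promoters was not determined.

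PBC2 and RPN10 show how a gene can carry peaks of both replicates and no genomic interval. PBC2 is a beta subunit without a protease site. Its replicate 1 peak (chromosome 1, 29098012 to 29103602, score 2869.61) was 5591 bp wide, touched the gene at one end and had its centre nearest to an end of the transcription factor gene NAC032. The replicate 2 peak of PBC2 lay at the opposite end (29095628 to 29096976, score 121.07), and the nearest genomic interval was 1767 bp away from the gene. RPN10 is a receptor for ubiquitin chains. Wide replicate peaks reached it from the side of MYB4, a gene of a transcription factor, with scores of 3100 and 577.65, and the nearest genomic interval was 1118 bp away. A second replicate 2 peak at the far end of RPN10 had a score of 88.04, with 0.147% of that list below it.

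RPN1A was the proteasome gene with a replicate 1 peak and no replicate 2 peak. That replicate 1 peak (chromosome 2, 8856966 to 8859650) had a score of 1223.89, below the list median, and its centre was nearest to GPRI1, a transcription factor gene. The nearest replicate 2 peak was 14126 bp away. The PePr peaks at RPN1A had p-values of 4.85e-07 on the same side and 3.25e-14 at the opposite end.

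Replicate 2 peaks at core genes had low scores within their list. The 7 peaks, at PAD1, PBB1, PBC2, PBE1, AT3G26340, PBF1 and PBG1, had scores from 115 to 474 with a median of 160, and none reached the list median of 571. Their scores were 115.33 at the alpha subunit PAD1, and 116.1, 159.86 and 474.01 at PBB1, PBE1 and AT3G26340. By the list of subunits AT3G26340 is the paralog of PBE1, and PBB1, PBE1 and AT3G26340 belong to the beta subunits with protease sites. The others were 121.07 at PBC2, 293.57 at PBG1 and 361.94 at PBF1. The 3 ATPase peaks had scores of 513.67 (AT1G53780), 911.92 and 1165.99, 2 of them above the list median. The 7 peaks at non-ATPase genes ranged from 88.0 to 3100 with a median of 185, and 3 lay above the list median. The highest of these after RPN1B was at RPN5B, a lid subunit (1447.57), and its centre was nearest to RGF9. The remaining 5 were at RPN10 (577.65 and 88.04), at the far end of RPN1B (184.93), at AT1G04810 (113.35) and at the lid subunit RPN6 (108.82).

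**Figure D4:**
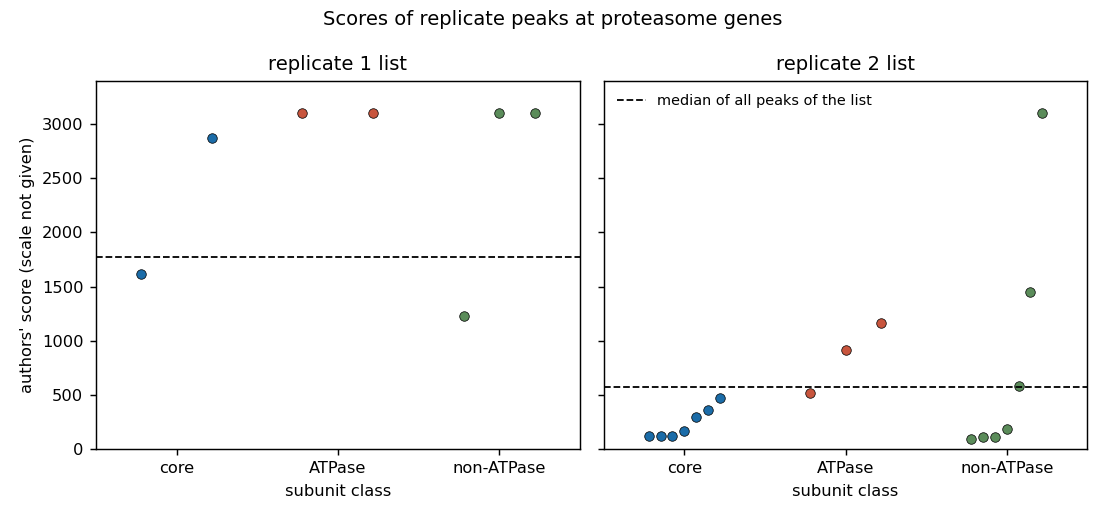
The authors' scores of the peaks at proteasome genes in the replicate 1 list (left) and the replicate 2 list (right), by subunit class; each point is 1 peak at 1 gene and the dashed line is the median of all peaks of that list. All 7 core peaks of the replicate 2 list lie under its median of 571, and 5 of the 7 replicate 1 peaks lie above its median of 1772.

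The replicate peaks at proteasome genes were also set against the other lists. An overlap with a replicate 1 peak was found for 5 of the 17 peaks of replicate 2 (29.4%, beside 49.0% of that whole list), with scores from 294 to 3100 and a median of 912, and 12 did not, with scores from 88.0 to 1448 and a median of 140. A PePr peak was overlapped by 16 of the 17 (94.1%, beside 93.7% of the list). The exception was at PBB1, where the replicate 2 peak lay at one end (chromosome 3, 10151778 to 10153229) and the PePr peak at the other (10155121 to 10155970), with an authors' p-value of 2.12e-28. Conversely, all 7 replicate 1 peaks overlapped a PePr peak (98.5% of the whole list did) and 6 of them a peak of replicate 2 (90.1% of the whole list). The differences between these shares were not tested.

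The PePr peaks were set beside those at all genes by the authors' p-value. The median of the smallest PePr p-value per gene was 4.14e-11 over the 42 genes and 2.00e-11 over all 18849 genes with such a peak. It was 3.02e-10 for core, 1.18e-11 for ATPase and 4.14e-11 for non-ATPase genes. Over the 26 genes with a PePr peak alone it was 8.85e-09, and over the 16 that also had a replicate peak 1.31e-12. Within the PePr-only genes the smallest values were 1.10e-21 at the core gene PBD2, 2.49e-19 at the core gene AT4G15165 and 2.00e-17 at the non-ATPase gene AT4G19006. The largest were 7.51e-06 at RPT5A and 6.39e-06 at RPT5B, both of the ATPase ring and both close to the largest p-value of the list, 1.00e-05.

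**Figure D5:**
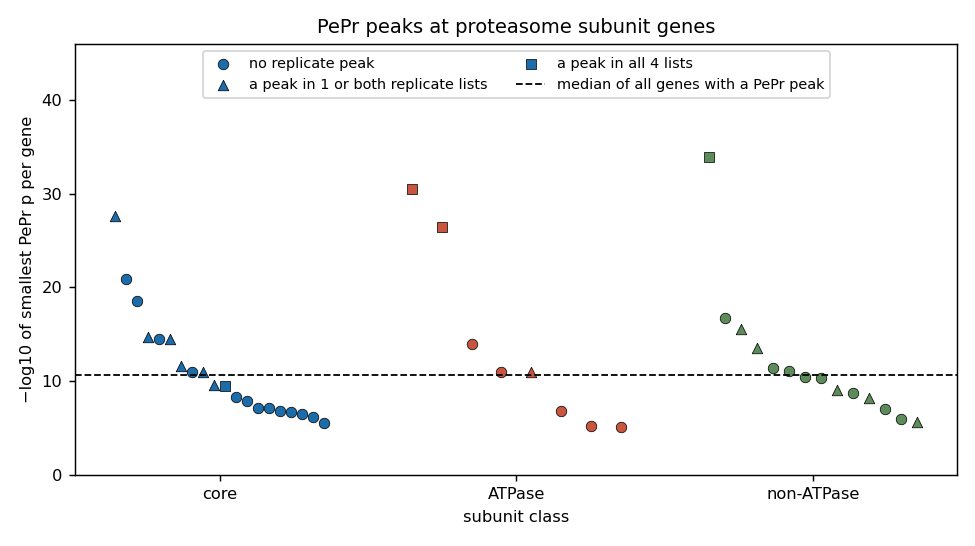
The smallest PePr p-value of each proteasome gene with a PePr peak, as −log10 of the authors' p-value, by subunit class; symbols mark genes with no replicate peak (circles), with a peak in 1 or both replicate lists but not in the genomic list (triangles) and in all 4 lists (squares), and the dashed line is the median over all nuclear genes with a PePr peak. RPN1B, RPT2b and RPT1A stand highest among the squares, and PBG1 lies under the dashed line.

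Proteasome genes with a PePr peak had it at 1 end in 26 cases and at both ends in 16 (38.1%, beside 40.9% of all genes with a PePr peak). By class both ends were reached in 5 of 20 core genes, 2 of 8 ATPase genes and 9 of 14 non-ATPase genes. The 9 were RPN1A, RPN1B, RPN5B, RPN8A, RPN12a, EMB2719, AT2G32730, AT4G24820 and AT4G19006. The class difference was not tested.

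Paralogs were compared pair by pair. For 11 subunits the gene table names both genes of a pair, and only these 11 pairs were counted. Other pairs, in which the gene table does not name both genes, were left out. By the list of subunits, RPT1A and AT1G53780 are such a pair, with a genomic list and a replicate 1 peak at RPT1A alone. Both genes of that pair had a replicate 2 peak and a PePr peak. PBE1 and AT3G26340 are another, and both had a replicate 2 peak. In the genomic list 2 pairs had a peak at 1 gene and the other 9 at neither. These 2 were RPT2b without RPT2a and RPN1B without RPN1A. In the replicate 2 list 6 of the 11 pairs had a peak at 1 gene (PAD1, PBB1, PBC2, RPT2b, RPN1B and RPN5B) and none of the 11 at both. In the replicate 1 list 1 pair, RPN1A and RPN1B, had peaks at both genes. In the PePr list 8 pairs did, and the other 3 had a peak at 1 gene, namely the alpha subunit genes PAA1 and PAF1 and RPT2b. Among the pairs left out, PAB1, RPT4A, EMB2719, RPN8A and AT4G19006 had a PePr peak. Their paralogs AT1G79210, AT1G45000, AT1G75990, MEE34 and AT5G45620 had none. Both genes had one at PAC1 and AT4G15165, PBE1 and AT3G26340, RPT1A and AT1G53780, RPT6A and AT5G20000, and AT2G32730 and AT1G04810. What share of pairs would differ given how many genes each list reaches was not determined. RPT2a, the paralog known in Arabidopsis for its part in root meristem maintenance, had no peak in any list. Its nearest genomic interval was 49551 bp away, its nearest replicate 2 peak 4021 bp away, and its nearest PePr peak 528 bp away, just outside the window.

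The 500 bp window had few genes near its edge. In the genomic list RPN1B, at 81 bp, was the farthest gene inside, and AT2G32730, at 885 bp, the nearest outside. In the replicate 1 list all 7 peaks covered a gene end, and AT2G32730 (532 bp) and PBC1 (695 bp) came next. In the replicate 2 list PBE1 (469 bp) was the last inside and AT2G32730 (511 bp) the first outside. In the PePr list AT5G20000 (251 bp) was the last inside and RPT2a the first outside. For 30 of the 52 genes the nearest genomic interval was more than 5000 bp away, whereas this held for 1 gene with the PePr list (AT1G45000, 9391 bp). The genomic list holds 4995 intervals and the PePr list 24219 peaks. The share of all genes beyond this distance was not determined for either list.

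Genes that work with the proteasome were taken from a list of 39 loci. Of these 6 had a genomic list peak (15.4%, background 19.6%), 7 a replicate 1 peak (17.9%, background 24.6%), 14 a replicate 2 peak (35.9%, background 41.4%) and 35 a PePr peak (89.7%, background 68.7%). Among the listed RAD23 proteins, which carry ubiquitinated substrates to the proteasome, RAD23B and RAD23C had genomic list peaks and RAD23D had a replicate 2 peak with a score of 116.37. RAD23B (scores of 2465 in replicate 1 and 2338 in replicate 2) and RAD23C (scores of 2703 and 2091) each had 2 intervals. For each gene, 1 of the 2 was nearest to the end of a neighbour, AT1G79640 beside RAD23B and LBD41 beside RAD23C.

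Of the polyubiquitin genes, which encode ubiquitin as head-to-tail repeats, UBQ10 and UBQ11 had genomic list peaks and UBQ3, UBQ4 and UBQ14 had only PePr peaks. The UBQ11 peaks had a score of 3100 in both replicate lists and a smallest PePr p-value of 3.10e-35. UBQ10 had scores of 3100 and 1884. Among 13 genes listed under assembly and associated proteins, 1 had a genomic list peak: PA200, an activator that caps the core in place of the regulatory particle, with 3 intervals and scores of 3100 and 808. This group as listed also held RPN13 and RPN12b, which carry RPN names but are not among the proteasome subunit genes counted above. Of the NAC factors tied to the response to proteasome inhibition, NAC2 (ANAC078) had a genomic list peak (chromosome 5, 1243211 to 1244572, scores 3100 and 2648), which also reached NAC077. The related NAC053 had only a PePr peak and the authors' p-value of that peak was 8.98e-06.

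The COP9 signalosome, a complex whose subunits are related to those of the proteasome lid, was counted in the same way. None of its 10 genes had a genomic or replicate 1 peak, 4 had a replicate 2 peak (FUS6, COP13, CSN6A and FUS5, with scores from 119 to 512), and 8 had a PePr peak. Its shares of 40% with replicate 2 and 80% with PePr stood beside backgrounds of 41.4% and 68.7%. The backgrounds of the genomic and replicate 1 lists were 19.6% and 24.6%. The ubiquitin-activating enzymes UBA1 and UBA2 had PePr peaks only. With 2 to 13 genes these groups are small, and no difference between them or from the proteasome genes was tested.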

How the data were processed

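The authors deposited 4 peak lists without headers. Bowtie2 2.2.2, SAMtools, bedtools and MACS, and the builds TAIR9 and TAIR10, are named without roles in the submitters' processing notes; PePr is named only in a list's name. Neither thresholds, controls, pooling nor depth, nor which build a list uses, is stated in the labels. The deposited replicate lists hold a score per peak on an unstated scale, the deposited PePr list a p-value; 3 further columns of it were not used. Genes came from the RefSeq table of TAIR10.1, which gives no strand; its coordinates placed peaks but are not printed, and distances assume that the lists share them. Peak positions are counted from 1. Shares have exact (Clopper-Pearson) 95% intervals. No test was made, since each group had 1 library and lists of genes are described by counts. The members and lists were chosen with earlier results of these data known. Every gene with a genomic list peak and each gene without a peak in any list are named. Of the 11 pairs named in the gene table, each with a genomic list peak at 1 gene is named. Other genes named for their scores, p-values or distances were chosen after those were seen. Of the genes that work with the proteasome, 1 is not reported here. The planned promoter sequences and motif search were not run, as no sequence was used here. The gene-end rule was tested on simulated data. Python 3.11.15, pandas 2.3.3, NumPy 2.4.6, SciPy 1.17.1 and matplotlib 3.10.9 were used.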

Additional observations from a re-analysis of the deposited data

How the results depend on the processing

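The 16 counts of genes (all subunits and 3 classes in 4 lists) were recomputed under 6 alternatives; 75 of 96 values stayed within 1.5 times the reported count and 21 did not. With windows of 1000 bp, 2 non-ATPase genes had a genomic list peak, and in the replicate 1 list 11 genes did (4 core, 5 non-ATPase); the non-ATPase share there, 29.4%, then lay above its background of 27.6%. With the better 50% of peaks (by score, by PePr p-value, or in the genomic list by the mean rank of both replicate scores), 0 core genes had a genomic list peak and 1 a replicate 1 peak, the replicate 2 list reached 5 genes (0 core, 3 non-ATPase) and the PePr list 27 (12 core, 5 ATPase). The PePr share of ATPase genes, above the background as reported, lay under it there (45.5%, background 46.9%) and with the nearest end. The ATPase share of 18.2% in the genomic list, under the background as reported, lay above it with the better 50% of peaks (10.6%) and with windows of 200 bp (17.7%), and so did that share in the replicate 1 list with the better 50% (13.1%). With each peak given to the gene with the nearest end, the genomic list reached 2 genes (1 ATPase, 0 non-ATPase), the replicate 1 list 1 (0 core, 1 ATPase, 0 non-ATPase) and the replicate 2 list 4 core genes, and the PePr list 5 ATPase genes (45.5%, background 53.9%). Windows of 200 bp, an overlap of at least 100 bp, and the whole gene with 500 bp on either side, which was added after seeing the data, moved no count by over 1.5 times. Over the 52 genes together the share lay under the background in the genomic, replicate 1 and replicate 2 lists and above it in the PePr list under all 6 alternatives. With the better 50% of peaks the PePr share was near its background, at 51.9% beside 46.9%. There the other shares were 5.77% beside 10.6% (genomic), 9.62% beside 13.1% (replicate 1) and 9.62% beside 23.5% (replicate 2). These differences were not tested. The alternative with transcription starts alone was not run because the gene table gives no strand. No paired analysis was possible because each group had 1 library and the counts come from no test. Read depth is unknown, so a gene without a peak may lie under a list's threshold.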

Other observations

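Proteasome genes lay close to their neighbours. The nearest protein-coding gene was within 500 bp for 40 of the 52 genes (76.9%), beside 66.7% of all nuclear protein-coding genes, and the median gap to it was 68 bp beside 191 bp. All 4 genes with a genomic list peak and all 7 with a replicate 1 peak were among these 40. Over genes with such a close neighbour, 10% of the proteasome genes and 21.9% of all genes had a genomic list peak; over genes without one, 0 of 12 proteasome genes and 15.1% of all genes did. In the PePr list these shares were 82.5% and 74.3% with a close neighbour and 75% and 57.5% without. The part of gene spacing in the counts was not tested beyond this split, which was made after the counts were seen.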
